A study of Mus musculus with 33 samples.

Results

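Tumours treated with ESK981 alone were set against tumours treated with an anti-PD-1 antibody alone, without any vehicle library in the comparison. The groups were chosen by the treatment named in the labels, and they held 8 ESK981 tumours from 5 mice and 7 anti-PD-1 tumours from 5 mice, which is 15 of the 33 tumours of the series. All were subcutaneous tumours of Myc-CaP, a line from a mouse prostate tumour driven by a human MYC transgene, grown in both flanks of male FVB mice with an intact immune system. Dosing began once a tumour measured 50 mm3. ESK981 was given by mouth at 15 mg/kg on 5 days a week, the antibody was injected into the peritoneum at 200 µg per mouse 3 times a week, and tumours were removed after 3 weeks. The series also had an isotype antibody and an oral vehicle as controls, but the labels of single tumours do not say which mice of these groups received them. Both groups are therefore read as their labels name them, ESK981 15 mg/kg and PD1. They share the cell line, strain, sex, site and time.

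ESK981 is an oral inhibitor of several kinases, among them receptors of the vascular growth factor VEGF, and of PIKfyve, a lipid kinase of the endosome and lysosome on which autophagic flux depends. PD-1 is an inhibitory receptor of activated T cells. Blocking it lets T cells that meet their antigen go on signalling and secreting interferon gamma, which acts on tumour cells and macrophages alike. Its known targets include the guanylate-binding proteins, the T cell chemokines CXCL9 and CXCL10, the presentation machinery of MHC class I and, through CIITA, MHC class II, and the PD-1 ligand PD-L1. The comparison asks how the transcriptomes of tumours under these treatments differed from each other; it cannot say which of the pair moved away from an untreated tumour.

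Levels are FPKM, fragments scaled by exon length and by library size, as the authors deposited them. Mean levels are given over 5 mice with their SD, after averaging the tumours of a mouse. Differences are ESK981 minus anti-PD-1 in log2(FPKM + 0.5), each with its SE from limma; the added 0.5 shrinks the differences of low genes. Calls were made at an adjusted p below 0.05 (limma, 2-sided, Benjamini-Hochberg over all 14797 genes tested), and only called genes are said to be higher or lower. Tumours are named by a mouse number within the group and by the flank, L or R, and the numbers pair nothing between the groups.

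The libraries differed in ways that followed the groups. ESK981 libraries held 18.1 to 32.4 M fragments (M, mega), against 11.3 to 24.2 M in anti-PD-1 libraries (exact permutation test over mice, 2-sided p = 0.0635). Residual ribosomal-RNA-like signal was lower in ESK981 tumours, at 15043 to 86387 FPKM, against 36276 to 179159 FPKM in anti-PD-1 tumours, and the 13 mitochondrially encoded protein genes summed to 3991 to 8369 FPKM in ESK981 tumours, against 7233 to 52728 FPKM in anti-PD-1 tumours. Both had an exact permutation p of 0.00794, the smallest that 5 mice against 5 can give. All anti-PD-1 tumours came from 1 lane of the flow cell and the ESK981 tumours from 2 other lanes, so lane and treatment cannot be told apart. Anti-PD-1 tumour 4R stood apart, with the fewest fragments and the most ribosomal and mitochondrial signal of its group. It also held adipocyte transcripts, with Adipoq at 2.11 FPKM and Cfd at 8.52 FPKM. The other anti-PD-1 tumours were at or under 0.0361 and 0.261 FPKM for these genes. ESK981 tumours 1R and 2R stood apart by the proliferation marker Mki67, at 2.80 and 2.70 FPKM against 25.9 FPKM or more in the other ESK981 tumours. Genes given with their values that lose their call without 1R and 2R, or without 4R, are named as such below. Leaving out 1R and 2R also removes ESK981 mouse 2, whose only tumour is 2R. Of the epithelial markers, the keratin Krt8 was at 22.7 ± 10.8 FPKM in ESK981 tumours and 21.9 ± 10.1 FPKM in anti-PD-1 tumours. The luminal prostate gene Pbsn was listed at 0 in all 15 tumours, and Epcam was at or under 0.162 FPKM in ESK981 tumours and 0.0667 FPKM in anti-PD-1 tumours.

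ESK981 tumours had lower levels than anti-PD-1 tumours of a wide set of immune genes and higher levels of few genes. Of 14797 genes tested, 598 were called lower with ESK981 (4.04%) and 44 higher (0.297%), 642 in all (4.34%). Without adjustment, 2938 genes had a p under 0.05, and the median difference over all genes was 0.00. Among called genes, 520 lower and 21 higher were protein-coding. In 723 genes (4.89%) every ESK981 mouse lay below every anti-PD-1 mouse, and in 231 (1.56%) every ESK981 mouse lay above. Of the 598 lower genes, 138 passed the filter on low values only through the anti-PD-1 tumours, so that these genes could hardly have differed the other way. The same limit holds for 7 of the 44 higher genes, which passed only through the ESK981 tumours.

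**Figure D1:**
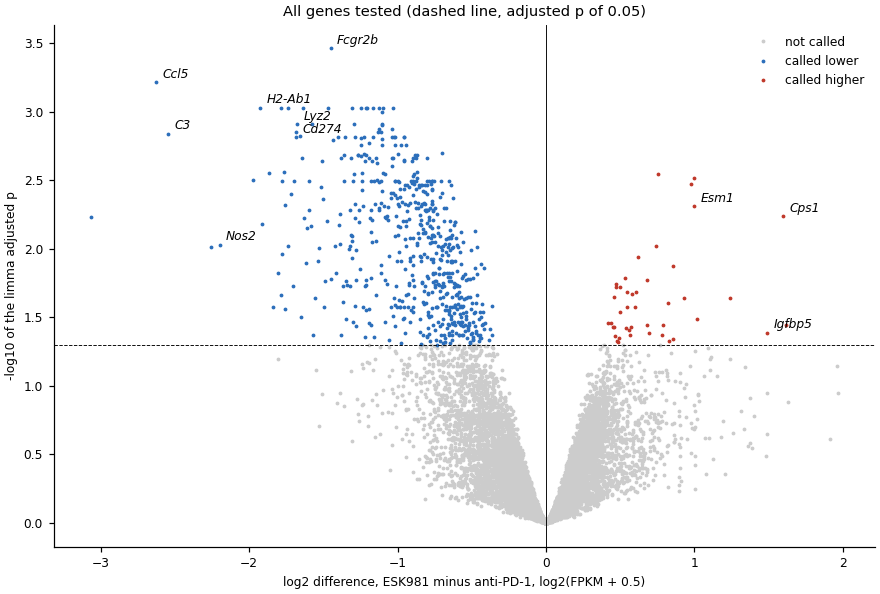
Difference between ESK981 and anti-PD-1 tumours (x axis, log2 scale, positive when higher with ESK981) against the negative log10 of the limma adjusted p (y axis) for all 14797 genes tested. The 598 genes called lower lie on the left and reach further than the 44 called higher on the right, and the line marks an adjusted p of 0.05.

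The number of calls depended on which mice set the estimate of spread. With the vehicle and combination mice (ESK981 and anti-PD-1 together) in the fit, 1 gene was called, Ccl5, and with the combination mice alone added, 6 were, Ccl5, C3, Cps1, Stra6, Gm25630 and mt-Nd4l. Over all genes tested, the median SD between mice was 0.207 with ESK981, 0.234 with anti-PD-1, 0.336 in combination mice and 0.254 in vehicle mice. Over the 642 called genes it was 0.222 with ESK981 and 0.225 with anti-PD-1, against 0.640 in combination and 0.486 in vehicle mice. The first pair of values helped choose those genes and the second did not. A fit with all 4 groups and a weight for each group, chosen after seeing the data, called 595 genes. A group's weight was the same for every gene, so it does not follow spread that differs from gene to gene. These choices of spread leave each difference as it is. Every one of the 642 genes kept its sign in every alternative in which it was tested, though the alternatives share most of their tumours.

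**Figure D2:**
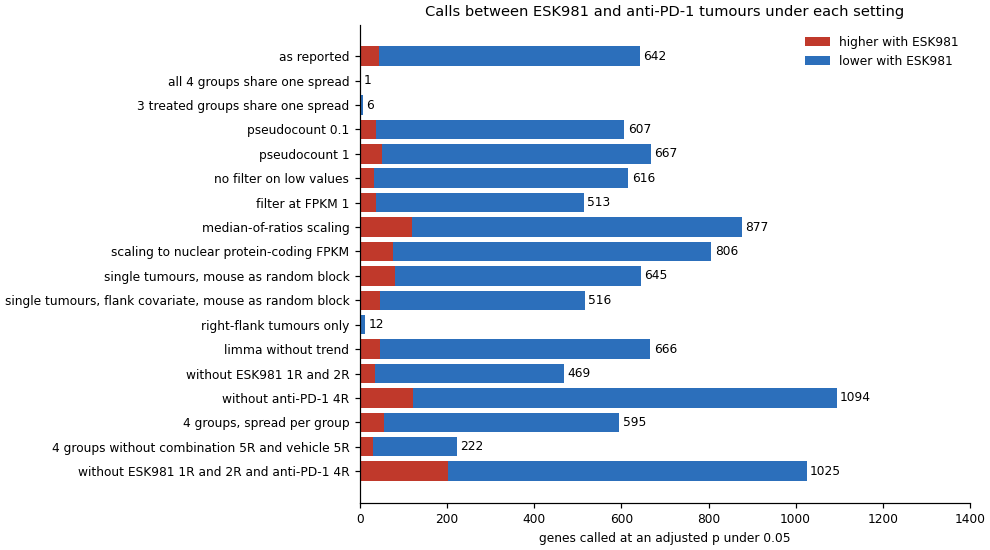
Genes called at an adjusted p under 0.05 (x axis) as reported and under each alternative (y axis), split into higher and lower with ESK981. The setting labelled spread per group used a weight for each group that was the same for every gene. Sharing one spread over 4 groups gave 1 call, over 3 groups 6, right-flank tumours alone 12, and 4 groups without combination 5R and vehicle 5R 222; the other settings drawn gave 469 to 1094.

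The chemokine Ccl5, secreted by activated T cells and macrophages and drawing in further leukocytes (chr11:83525778-83530518, minus strand, mm10), was the lowest of the named protein-coding genes. Its level was 1.38 to 5.65 FPKM in ESK981 tumours (median 1.79) and 9.20 to 23.6 FPKM in anti-PD-1 tumours (median 15.6), with no overlap between single tumours. The difference was -2.63 ± 0.22 (adjusted p = 0.000612), and it was called in all 27 alternatives. The complement component C3 (chr17:57203970-57228136, minus strand) came next, at 2.10 to 7.37 FPKM in ESK981 tumours and 16.1 to 61.5 FPKM in anti-PD-1 tumours. Here too no tumour of one group reached the other, the difference was -2.55 ± 0.30 (adjusted p = 0.00144), and 26 of 27 alternatives called it. The smallest p of all belonged to Fcgr2b, the inhibitory Fc receptor of macrophages and B cells, which was singled out after its values were seen. It stood at 2.52 to 4.59 FPKM in ESK981 tumours and 7.15 to 12 FPKM in anti-PD-1 tumours, a difference of -1.45 ± 0.11 (adjusted p = 0.000346).

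The other genes with the largest decreases included chemokines, myeloid genes and interferon targets. Cxcl14, a chemokine of epithelium and stroma, differed by -2.26 ± 0.42 (adjusted p = 0.00963), with 0.846 to 6.76 FPKM in ESK981 tumours and 4.46 to 30.7 FPKM in anti-PD-1 tumours. Hk3, the hexokinase of myeloid cells, averaged 1.74 ± 0.903 FPKM in ESK981 tumours and 7.41 ± 2.01 FPKM in anti-PD-1 tumours. Rarres2, the precursor of the chemoattractant chemerin, averaged 0.823 ± 0.406 FPKM in ESK981 tumours and 4.85 ± 2.82 FPKM in anti-PD-1 tumours. The remaining genes of that set, Serpina3g, Chil1 and Ccl8, differed by -1.78, -1.77 and -1.76, with adjusted p of 0.00321, 0.00276 and 0.0277 in limma. Single tumours of the groups overlapped for Chil1, Cxcl14, Hk3 and Serpina3g and not for Rarres2 or Ccl8. The mouse means of all of them were apart because that was a condition for choosing the largest decreases.

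T cell transcripts were scarce in both groups. Of 16 genes of the T cell receptor complex and its signalling, 9 were tested and 4 were lower with ESK981 (Cd3g, Cd3e, Thy1, Trbc2), but 8 of the 9, among them 3 of the 4, had passed the filter only through the anti-PD-1 tumours. Trbc2 was not called without ESK981 tumours 1R and 2R (adjusted p = 0.138). Cd3e, a signalling chain of the receptor, was at 0.126 to 0.809 FPKM in ESK981 tumours and 0.246 to 1.62 FPKM in anti-PD-1 tumours (difference -1.0 ± 0.17, adjusted p = 0.00679). The low anti-PD-1 value was tumour 4R, whose mouse partner 4L had 1.61 FPKM, and without 4R the difference was -1.15. Cd8a was too low to be tested, at 0.0825 to 0.289 FPKM in ESK981 tumours and 0.0243 to 1.06 FPKM in anti-PD-1 tumours. Of 12 cytotoxic effectors, 5 were tested and 4 were lower, and 4 of those 5 had passed only through the anti-PD-1 tumours; the exception was Ccl5, which is also a CC chemokine. Gzmb, a granule protease, averaged 0.315 ± 0.167 FPKM in ESK981 tumours and 1.51 ± 0.739 FPKM in anti-PD-1 tumours (difference -1.18 ± 0.24, adjusted p = 0.0163), and its adjusted p was 0.10 without ESK981 tumours 1R and 2R. Prf1, the pore-forming protein perforin, averaged 0.129 ± 0.106 FPKM in ESK981 tumours and 0.946 ± 0.391 FPKM in anti-PD-1 tumours (difference -1.15 ± 0.18, adjusted p = 0.00472). In bulk tissue, fewer T cells and less RNA per T cell cannot be told apart.

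Of 5 receptors that restrain T cells tested, 2 were lower, Pdcd1 and Ctla4, and 1 difference was above 0. Pdcd1, which encodes PD-1 itself, averaged 0.218 ± 0.0964 FPKM in ESK981 tumours and 0.716 ± 0.252 FPKM in anti-PD-1 tumours (adjusted p = 0.0341), and Ctla4 differed by -0.56 ± 0.12 (adjusted p = 0.0260). Both passed the filter only through the anti-PD-1 tumours, and neither was called without ESK981 tumours 1R and 2R. Havcr2 and Lag3 were not called, with differences of -0.70 ± 0.18 and -0.63 ± 0.19 and adjusted p of 0.0515 and 0.0869 in limma. Of 6 regulatory T cell genes, 3 were tested and none was called in limma, or had an unadjusted p under 0.05; Ccr8 averaged 0.936 FPKM in ESK981 tumours and 1.25 FPKM in anti-PD-1 tumours. Klrd1 was the 1 gene of 7 NK cell genes that could be tested, and its difference of -0.59 had an adjusted p of 0.150.

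Interferon gamma itself was under the filter, with Ifng at up to 0.566 FPKM in ESK981 tumours and 0.0732 to 1.61 FPKM in anti-PD-1 tumours. Of 12 genes of its signalling and feedback tested, 7 were lower with ESK981 (Ciita, Ifngr2, Batf2, Socs1, Irf8, Irf1 and Nlrc5), none was higher, and the median difference was -0.87, beside 0.00 for all genes. Batf2 had passed the filter only through the anti-PD-1 tumours. Irf1, the transcription factor that carries the interferon gamma signal to many of its targets, was at 5.14 to 14.3 FPKM in ESK981 tumours (median 8.40) and 9.73 to 24.9 FPKM in anti-PD-1 tumours (median 15.7). The mouse means did not overlap, and the difference was -1.01 ± 0.21 (adjusted p = 0.0188); without ESK981 tumours 1R and 2R it was -0.74, with an adjusted p of 0.0846. Ciita, the master activator of MHC class II genes, averaged 0.631 ± 0.364 FPKM in ESK981 tumours and 3.00 ± 0.728 FPKM in anti-PD-1 tumours (difference -1.59 ± 0.23, adjusted p = 0.00321). Socs1, a feedback inhibitor of the pathway, differed by -1.11 ± 0.22 (adjusted p = 0.0149).

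The interferon-inducible GTPases, which attack the membranes of intracellular pathogens, were lower as a family. Of 15 tested, 13 were lower with ESK981, and the median difference was -1.29; none had passed the filter through 1 group only. Gbp2 (chr3:142620602-142638008, plus strand) was at 4.01 to 22.5 FPKM in ESK981 tumours (median 9.39) and 9.13 to 44.4 FPKM in anti-PD-1 tumours (median 28.4), a difference of -1.62 ± 0.32 (adjusted p = 0.0126). Igtp, an immunity-related GTPase, was at 2.66 to 15.8 FPKM in ESK981 tumours (median 5.32) and 4.63 to 39.3 FPKM in anti-PD-1 tumours (median 18.9), a difference of -1.70 ± 0.36 (adjusted p = 0.0188). The mouse means were apart in both genes, while single tumours overlapped: anti-PD-1 4R was as low as the ESK981 tumours, and ESK981 1L and 3R were the highest of theirs. Gbp8 differed by -1.66 ± 0.20 (adjusted p = 0.00150). Without ESK981 tumours 1R and 2R, 8 of the 15 were called, and neither Gbp2 (adjusted p = 0.0585) nor Igtp (adjusted p = 0.123) was. Tgtp1 and Tgtp2, and several Gbp genes, are near copies of each other, and how the counting divided their reads is not known.

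The CXCR3 chemokines and other effectors of interferon gamma were lower in 6 of 7 tested, with a median of -1.10, but 2 of these 6 had passed the filter only through the anti-PD-1 tumours, Cxcl10 among them. Cxcl9, which attracts activated T cells, was at 2.36 to 10.5 FPKM in ESK981 tumours (median 4.51) and 5.86 to 23.4 FPKM in anti-PD-1 tumours (median 14.2), a difference of -1.58 ± 0.27 (adjusted p = 0.00680). Cxcl10, a ligand of the same receptor, averaged 0.575 ± 0.143 FPKM in ESK981 tumours and 1.92 ± 0.388 FPKM in anti-PD-1 tumours (difference -1.10 ± 0.15, adjusted p = 0.00283). Nos2, the inducible nitric oxide synthase of activated macrophages, was at 0.189 to 6.24 FPKM in ESK981 tumours and 4.29 to 16.9 FPKM in anti-PD-1 tumours. Single tumours overlapped, and the lowest values, 0.189 and 0.197 FPKM, were those of ESK981 tumours 1R and 2R. Its difference of -2.20 ± 0.40 (adjusted p = 0.00933) was -1.42 without those tumours, with an adjusted p of 0.0768. Without them, 3 of the 7 genes were called, and Cxcl9 was not (adjusted p = 0.0540).

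**Figure D3:**
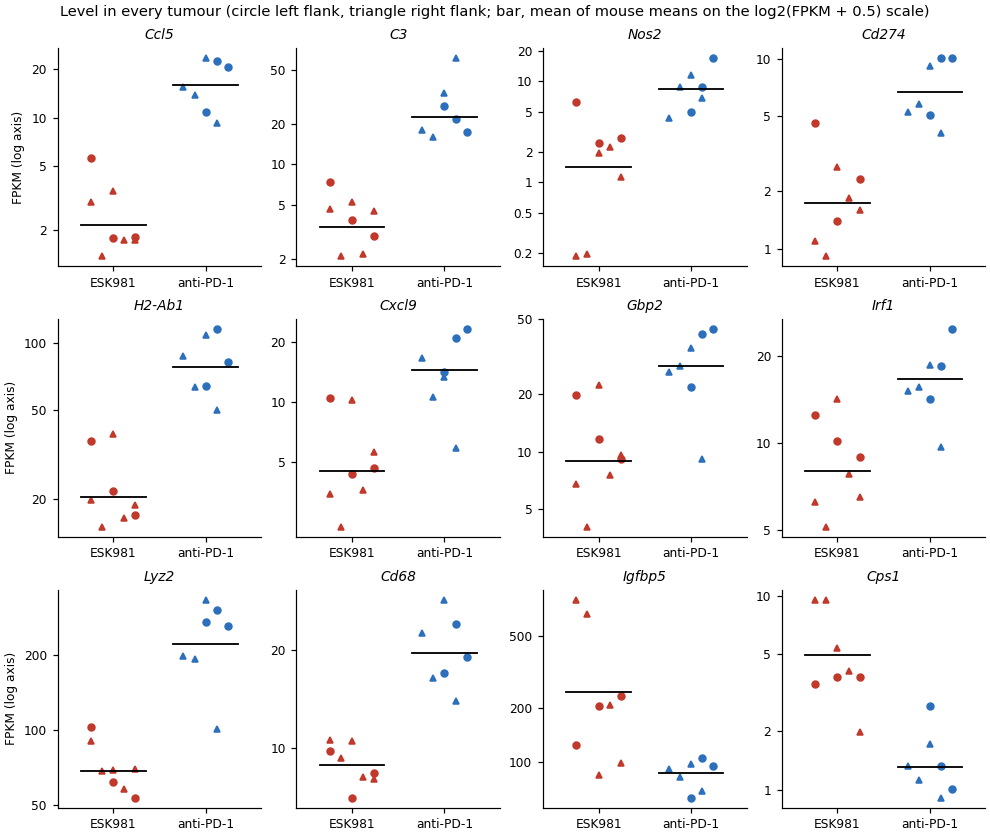
FPKM (y axis, log scale) in every tumour for 12 genes, with ESK981 tumours on the left and anti-PD-1 tumours on the right of each panel; circles are left-flank and triangles right-flank tumours, and bars mark the mean of the mouse means. Ccl5 and C3 separate all tumours, anti-PD-1 4R is the lowest of its group in several interferon targets, and Igfbp5 and Cps1 are highest in ESK981 tumours 1R and 2R.

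Promoter windows of 4 of these genes are printed to show the sequences through which interferon is known to act. They are RefSeq windows on GRCm38.p6, from 250 bases before to 50 bases after the annotated start, 5′ to 3′ on the gene's strand. Irf1 is at chr11:53769764-53770063 (plus), Gbp2 at chr3:142620413-142620712 (plus), Igtp at chr11:58199306-58199605 (plus) and Cxcl10 at chr5:92348840-92349139 (minus). Capitals mark TTCNNNGAA, the form of the gamma-activated site, which is its own reverse complement, and GAAA followed by any 2 bases and GAAA, the form bound by interferon regulatory factors, searched on both strands.
Irf1: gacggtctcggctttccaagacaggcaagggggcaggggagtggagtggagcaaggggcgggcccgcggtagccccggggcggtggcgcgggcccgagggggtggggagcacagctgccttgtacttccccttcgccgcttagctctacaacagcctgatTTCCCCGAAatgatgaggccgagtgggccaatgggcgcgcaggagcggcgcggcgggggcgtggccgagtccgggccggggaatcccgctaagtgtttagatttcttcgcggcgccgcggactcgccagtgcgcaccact
Gbp2: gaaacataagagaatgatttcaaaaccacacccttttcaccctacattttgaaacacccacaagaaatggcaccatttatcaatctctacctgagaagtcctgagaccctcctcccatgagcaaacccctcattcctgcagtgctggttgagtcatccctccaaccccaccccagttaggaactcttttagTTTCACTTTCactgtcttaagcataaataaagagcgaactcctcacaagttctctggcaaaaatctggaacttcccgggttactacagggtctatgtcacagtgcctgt
Igtp: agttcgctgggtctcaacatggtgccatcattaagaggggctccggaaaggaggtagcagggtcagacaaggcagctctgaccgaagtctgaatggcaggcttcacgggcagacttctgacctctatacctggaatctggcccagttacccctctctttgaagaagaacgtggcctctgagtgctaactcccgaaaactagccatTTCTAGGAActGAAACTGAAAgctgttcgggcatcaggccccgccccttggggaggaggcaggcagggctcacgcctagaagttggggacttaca
Cxcl10: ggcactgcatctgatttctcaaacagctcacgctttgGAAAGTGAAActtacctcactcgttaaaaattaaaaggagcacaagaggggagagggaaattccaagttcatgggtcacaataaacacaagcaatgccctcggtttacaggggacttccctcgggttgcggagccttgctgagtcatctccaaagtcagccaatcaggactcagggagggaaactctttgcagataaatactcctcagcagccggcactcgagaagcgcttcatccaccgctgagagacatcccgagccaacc
The Irf1 match starts 90 bases before the start, the Gbp2 match 59 bases before it on the opposite strand, the Igtp pair 45 and 34 bases before it without overlapping, and the Cxcl10 match 213 bases before it. These 4 were chosen after their values were seen, as genes called lower that hold a match. Over the 5 lists of interferon gamma signalling, GTPases, effectors and MHC genes, 43 of 59 genes had windows, 49 in number. TTCNNNGAA lay in 11 of these windows (22.4%), against 8.30% of all 32851 windows in the table, and the second motif in 16 (32.7%), against 3.44% of all windows; 6 windows held both. In the windows of the genes called lower, TTCNNNGAA lay in 9 of 33 (27.3%) and the second motif in 11 (33.3%), beside 22.4% and 32.7% in all windows of these lists. Whether these shares differ was not tested. A match is a run of letters and not a bound site.

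MHC class I presentation was lower in part. Of 12 genes tested, 6 were called lower, the median difference was -0.89, and all 12 differences were below 0. H2-D1, a classical class I heavy chain, was at 76.7 to 127 FPKM in ESK981 tumours and 155 to 258 FPKM in anti-PD-1 tumours, without overlap, a difference of -0.99 ± 0.15 (adjusted p = 0.00420). H2-K1, the other classical chain, differed by -1.02 ± 0.23 (adjusted p = 0.0257), and Tap1, a subunit of the peptide transporter, by -1.19 ± 0.27 (adjusted p = 0.0275). The immunoproteasome subunit Psmb9 was not called (-1.16 ± 0.33, adjusted p = 0.0765), and neither was B2m. Without ESK981 tumours 1R and 2R, 2 of the 12 were called, and H2-K1 and Tap1 were not. Class I heavy chains resemble one another closely, so their shares of reads are uncertain.

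MHC class II genes, which macrophages, dendritic cells and B cells express, were lower throughout. Of 10 genes, 8 were tested, all 8 were lower, none had passed through 1 group only, and the median difference was -1.52. H2-Ab1 (chr17:34257689-34269419, plus strand), the beta chain of I-A, was at 14.9 to 39.3 FPKM in ESK981 tumours (median 19.2) and 50.0 to 116 FPKM in anti-PD-1 tumours (median 82.2). The groups did not overlap, and the difference was -1.93 ± 0.19 (adjusted p = 0.000941). Its partner chain H2-Aa differed by -1.64 ± 0.16 and the invariant chain Cd74 by -1.79 ± 0.19, with the same adjusted p. The class II genes summed to 138 to 326 FPKM in ESK981 tumours and 335 to 903 FPKM in anti-PD-1 tumours. All 8 were also called without ESK981 tumours 1R and 2R, without anti-PD-1 4R and with each of the 10 mice left out in turn. With one spread over 4 groups, over 3 groups, or with right-flank tumours alone, 0 of the 8 were called. The right-flank fit held no tumour of anti-PD-1 mouse 5.

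PD-L1, the ligand that ties interferon gamma to the antibody's target, was among the lower genes. Cd274 (chr19:29367455-29388095, plus strand) was at 0.914 to 4.59 FPKM in ESK981 tumours (median 1.73) and 4.05 to 10.1 FPKM in anti-PD-1 tumours (median 5.81). Only ESK981 tumour 1L entered the anti-PD-1 range, and the difference was -1.68 ± 0.21 (adjusted p = 0.00153). PD-L2, encoded by Pdcd1lg2, averaged 0.582 ± 0.535 FPKM in ESK981 tumours and 3.40 ± 0.891 FPKM in anti-PD-1 tumours (difference -1.97 ± 0.28, adjusted p = 0.00316). Of 11 checkpoint and costimulatory ligands tested, 5 were lower, the others being Vsir, Cd40 and Cd86; Pdcd1lg2 and Cd40 had passed the filter only through the anti-PD-1 tumours, and Cd86 was not called without ESK981 tumours 1R and 2R (adjusted p = 0.0689). Of 23 genes associated with type I interferon, 3 were lower (Zbp1, Oasl2, Dhx58), 21 differences were below 0, and the median was -0.37. An unadjusted p under 0.05 was found for 10 of the 23, beside 2938 of all 14797 genes tested. Without anti-PD-1 4R 7 were called. Without ESK981 tumours 1R and 2R 4 were called, and Dhx58 was not (adjusted p = 0.0536). Whether the interferon lists differ from each other was not tested.

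Macrophage genes were lower as a body. Of 16 tested, 14 were lower with ESK981, Cd14 and Apoe were not called, and the median was -1.02. The 17 genes of the list summed to 164 to 342 FPKM in ESK981 tumours and 427 to 762 FPKM in anti-PD-1 tumours, so the groups did not overlap. Lyz2, lysozyme, was at 53.4 to 102 FPKM in ESK981 tumours (median 68.5) and 101 to 332 FPKM in anti-PD-1 tumours (median 260), a difference of -1.68 ± 0.18 (adjusted p = 0.00123). Cd68, a lysosomal glycoprotein of macrophages, was at 7.02 to 10.6 FPKM in ESK981 tumours and 13.9 to 28.4 FPKM in anti-PD-1 tumours (difference -1.10 ± 0.11, adjusted p = 0.000941). Csf1r, the receptor for the macrophage growth factor, was at 2.81 to 6.79 FPKM in ESK981 tumours and 7.36 to 12.6 FPKM in anti-PD-1 tumours (difference -1.12 ± 0.18, adjusted p = 0.00521). Cd68 and Csf1r separated every tumour, while for Lyz2 anti-PD-1 4R, at 101 FPKM, met ESK981 1L, at 102 FPKM. Adgre1, the F4/80 antigen, differed by -0.79 ± 0.19 (adjusted p = 0.0378) and was called in only 3 of the 10 fits that each left out 1 mouse. Spi1, the myeloid transcription factor PU.1, differed by -1.02 ± 0.12 (adjusted p = 0.00153), and Ptprc, the pan-leukocyte antigen CD45, by -0.76 ± 0.15 (adjusted p = 0.0151; 0.0610 without ESK981 tumours 1R and 2R).

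Interferon targets and class II genes are expressed in macrophages as well as in other cells. In summed level, the T cell receptor genes reached 3.66 to 7.77 FPKM in ESK981 tumours and 2.62 to 17.9 FPKM in anti-PD-1 tumours, and the B and plasma cell genes 0.862 to 8.87 FPKM in ESK981 tumours and 1.25 to 3.24 FPKM in anti-PD-1 tumours. The dendritic cell genes summed to 2.06 to 3.57 FPKM in ESK981 tumours and 3.3 to 6.27 FPKM in anti-PD-1 tumours, and of 9 members 1 was tested (Irf8, lower). How much of the interferon and class II differences moves with these markers was not tested.

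Of 7 genes of alternatively activated macrophages tested, 1 was lower, beside 4.04% of all genes. It was Il4ra, the interleukin 4 receptor (-1.03 ± 0.12, adjusted p = 0.00133). Arg1, arginase, was at 55.4 to 81.0 FPKM in ESK981 tumours and 69.0 to 126 FPKM in anti-PD-1 tumours, and its difference of -0.41 ± 0.14 was not called (adjusted p = 0.134). Mrc1, the mannose receptor, was not called either (-0.54 ± 0.39, adjusted p = 0.472); its range was 2.41 to 8.57 FPKM in ESK981 tumours and 2.30 to 29.7 FPKM in anti-PD-1 tumours, the last value being tumour 4R. Among inflammatory myeloid genes, 5 of 6 tested were lower, among them Il1b (-0.84 ± 0.16, adjusted p = 0.0115) and Nlrp3 (-0.64 ± 0.12, adjusted p = 0.0102), but 3 of the 6 had passed only through the anti-PD-1 tumours. Of 9 neutrophil genes 3 were tested. Csf3r and Clec4d were lower, by -0.88 and -1.07 with adjusted p of 0.00458 and 0.00581 in limma, and S100a8 was not called (difference 0.13 ± 0.26, adjusted p = 0.809). S100a9, too low to be tested, reached 3.19 FPKM in ESK981 tumours and 0.348 FPKM in anti-PD-1 tumours, and Ly6g was at or under 0.0327 FPKM in ESK981 tumours and listed at 0 in all anti-PD-1 tumours.

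Of 10 CC chemokines tested, 9 were lower with ESK981 and the median was -1.29; 2 of the 9, Ccl11 among them, had passed the filter only through the anti-PD-1 tumours. Ccl2, the main monocyte attractant, was at 0.596 to 2.58 FPKM in ESK981 tumours and 2.72 to 5.82 FPKM in anti-PD-1 tumours, without overlap, a difference of -1.32 ± 0.18 (adjusted p = 0.00220). Ccl11, an eosinophil attractant, differed by -1.51 ± 0.23 (adjusted p = 0.00354), and Ccl8 by -1.76 ± 0.40, with anti-PD-1 4R at 303 FPKM against 95.6 FPKM or less in the rest of its group. Of 10 complement genes tested, 2 had passed the filter only through the anti-PD-1 tumours, 1 of them called lower. In all, 7 of the 10 were lower, with a median of -1.01. Besides C3 these included C1s1, a protease of the first component, at 0.507 to 1.32 FPKM in ESK981 tumours and 2.71 to 7.23 FPKM in anti-PD-1 tumours (difference -1.68 ± 0.19, adjusted p = 0.00140). C5ar1, the receptor for the C5a fragment, differed by -0.96 ± 0.13 (adjusted p = 0.00226).

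**Figure D4:**
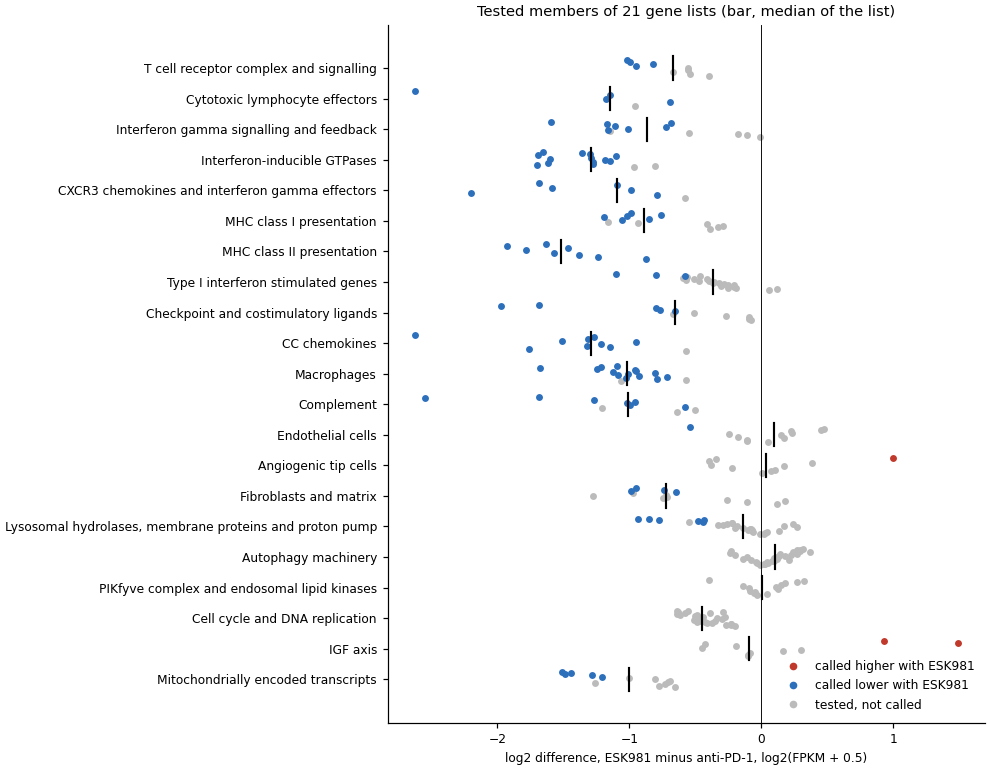
Difference between ESK981 and anti-PD-1 tumours (x axis, log2 scale) for each tested member of 21 gene lists (y axis), coloured by call, with a bar at the list median. MHC class II (8 of 8 lower), the GTPases (13 of 15) and macrophage genes (14 of 16) lie to the left, and autophagy, PIKfyve and endothelial genes lie around 0.

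Few vessel genes passed the test. Of 12 endothelial genes tested, 1 was lower with ESK981, beside 4.04% of all genes, and the median was 0.10. It was Eng (-0.54 ± 0.13, adjusted p = 0.0397). Eng was called in only 2 of the 10 fits that each left out 1 mouse, and not without ESK981 tumours 1R and 2R (adjusted p = 0.0536). Kdr, which encodes VEGFR2, was at 0.894 to 1.70 FPKM in ESK981 tumours and 0.205 to 1.53 FPKM in anti-PD-1 tumours (difference 0.18 ± 0.13, adjusted p = 0.459). Pecam1, CD31, averaged 2.03 ± 0.494 FPKM in ESK981 tumours and 1.84 ± 0.406 FPKM in anti-PD-1 tumours (difference 0.17 ± 0.18, adjusted p = 0.639), and Vegfa was not called (-0.50 ± 0.27, adjusted p = 0.334). Tek, the angiopoietin receptor TIE2, was too low to be tested, at 0.0853 to 0.536 FPKM in ESK981 tumours and 0.0526 to 0.431 FPKM in anti-PD-1 tumours. Nrp2, a co-receptor of VEGF and semaphorins that macrophages also make, was lower (-0.90 ± 0.12, adjusted p = 0.00220). Esm1, a secreted marker of endothelial tip cells, was the 1 of 10 tip cell genes called, and it was higher, at 0.527 to 2.54 FPKM in ESK981 tumours and 0 to 0.355 FPKM in anti-PD-1 tumours. The tumours did not overlap, the difference was 1.0 ± 0.16 (adjusted p = 0.00489), and it passed the filter only through the ESK981 tumours. The endothelial list summed to 13 to 20.6 FPKM in ESK981 tumours and 5.74 to 21.9 FPKM in anti-PD-1 tumours.

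Among stromal genes, collagen I was lower. Col1a1 was at 14.3 to 32.5 FPKM in ESK981 tumours and 33.8 to 56.3 FPKM in anti-PD-1 tumours, without overlap (difference -0.95 ± 0.17, adjusted p = 0.00852). In all, 4 of 13 fibroblast and matrix genes tested were lower (Col1a1, Col1a2, Fbln2, Col5a1), with a median of -0.72. Fbln2 (adjusted p = 0.0528) and Col5a1 (adjusted p = 0.0706) were not called without ESK981 tumours 1R and 2R. The membrane metalloproteinase Mmp14 (-0.87 ± 0.14, adjusted p = 0.00506) and the inhibitor Timp3 (-1.35 ± 0.28, adjusted p = 0.0172; 0.0797 without ESK981 tumours 1R and 2R) were lower among 9 genes tested. None of the 9 pericyte and smooth muscle genes tested was called in limma, and 3 were called without anti-PD-1 4R. An unadjusted p under 0.05 was found for 6 of the 9, beside 2938 of all 14797 genes tested.

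The genes higher with ESK981 were few and scattered over several gene groups. Cps1 (chr1:67123026-67231259, plus strand), the mitochondrial enzyme that starts the urea cycle, was at 1.98 to 9.59 FPKM in ESK981 tumours (median 3.95) and 0.907 to 2.70 FPKM in anti-PD-1 tumours (median 1.32). Tumours 1R and 2R were the highest, at 9.59 and 9.56 FPKM. The difference was 1.60 ± 0.27 (adjusted p = 0.00581), and 1.21 without those tumours (adjusted p = 0.00948). Igfbp5 (chr1:72857932-72874884, minus strand), a secreted binding protein of insulin-like growth factors, was at 84.6 to 796 FPKM in ESK981 tumours (median 207) and 63.4 to 105 FPKM in anti-PD-1 tumours (median 92.1). Here too 1R and 2R were highest, at 796 and 660 FPKM. The difference of 1.49 ± 0.36 (adjusted p = 0.0409) was 0.80 without them (adjusted p = 0.0226). Igfbp5 was called in only 3 of the 10 fits that each left out 1 mouse. Igfbp3, another such binding protein, differed by 0.93 ± 0.20 (adjusted p = 0.0229), and by 0.66 without anti-PD-1 4R, where it was not called (adjusted p = 0.129); it was not called without ESK981 tumours 1R and 2R either (adjusted p = 0.0548). No other member of the 10 IGF axis genes tested was called.

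Rpl22l1, a ribosomal protein paralogue, averaged 16.5 ± 1.98 FPKM in ESK981 tumours and 9.68 ± 1.84 FPKM in anti-PD-1 tumours (difference 0.74 ± 0.14, adjusted p = 0.00962). Acadm, an enzyme of mitochondrial fatty acid oxidation, was at 19.9 to 41.5 FPKM in ESK981 tumours and 11.5 to 20.8 FPKM in anti-PD-1 tumours (difference 0.68 ± 0.14, adjusted p = 0.0169). Aldh1a1, a retinal dehydrogenase, was at 292 to 398 FPKM in ESK981 tumours and 202 to 251 FPKM in anti-PD-1 tumours, so that no tumours overlapped (difference 0.55 ± 0.12, adjusted p = 0.0206). Sgcb, Adam22, Erbin, Rnf138, Vamp7, Fam204a and Cdk19 differed by 0.47 to 0.70, and none of these 7 was called without ESK981 tumours 1R and 2R, where limma's adjusted p ran from 0.0521 to 0.108. Of the 20 named genes called higher, 4 were called in all 10 fits that each left out 1 mouse. Of the 94 named genes called lower, 71 were. Many named genes were chosen for a small p in their list, so these counts do not compare the directions over all called genes.

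In arginine metabolism the differences ran both ways. Cps1 was higher, while Nos2 and the arginine transporter Slc7a2 were lower; Slc7a2 averaged 1.47 ± 0.695 FPKM in ESK981 tumours and 4.97 ± 1.35 FPKM in anti-PD-1 tumours (difference -1.53 ± 0.28, adjusted p = 0.00985). Without ESK981 tumours 1R and 2R its difference was -1.02 and was not called (adjusted p = 0.0540). The other 6 of 9 genes tested, Arg1 among them, were not called.

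Genes of the PIKfyve complex and of autophagy did not pass the test. None of 14 genes of the PIKfyve complex and endosomal lipid kinases and none of 32 autophagy genes was called in limma, with medians of 0.00 and 0.10. Unadjusted p values under 0.05 were found for 3 and 5 of them, beside 2938 of all 14797 genes tested. Leaving out anti-PD-1 4R called 1 gene in each list. Pikfyve was at 2.20 to 2.91 FPKM in ESK981 tumours and 1.17 to 2.80 FPKM in anti-PD-1 tumours (difference 0.11 ± 0.11, adjusted p = 0.628). Sqstm1, the autophagy receptor p62, differed by 0.27 ± 0.11 (adjusted p = 0.206), and Map1lc3b, which encodes LC3B, by 0.26 ± 0.16 (adjusted p = 0.393). Gpnmb, a glycoprotein induced by lysosomal stress, differed by -0.05 ± 0.13 (adjusted p = 0.845). Of 10 MiT/TFE transcription factors and lysosomal stress sensors tested, 0 were called in limma, and 1 was without anti-PD-1 4R. An unadjusted p under 0.05 was found for 6 of the 10, and 6 differences were below 0. Of 29 lysosomal genes tested, 6 were lower (Lipa, Psap, Atp6v0d2, Gla, Ctsa, Ctsz), with a list median of -0.14, and 2 to 4 were called when 1 mouse was left out. Atp6v0d2 (adjusted p = 0.0689) and Gla (adjusted p = 0.0889) were not called without ESK981 tumours 1R and 2R. Psap, the saposin precursor, was at 95.6 to 167 FPKM in ESK981 tumours and 186 to 308 FPKM in anti-PD-1 tumours, without overlap (difference -0.85 ± 0.14, adjusted p = 0.00563). Transcript levels do not measure PIKfyve activity or autophagic flux.

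Tumour cell programmes did not pass the test. None of 30 cell cycle and replication genes was called in limma, and 1 had an unadjusted p under 0.05. All 30 differences were below 0, with a median of -0.45, but without ESK981 tumours 1R and 2R the median was 0.28, so the direction rests on those tumours. Mki67 was at 2.70 to 36.1 FPKM in ESK981 tumours and 7.50 to 27.4 FPKM in anti-PD-1 tumours, with a difference of -0.51 ± 0.57 (adjusted p = 0.652). Without ESK981 tumours 1R and 2R its difference was 0.43 (adjusted p = 0.257), so its sign rests on them. The mouse Myc gene, apart from the transgene, differed by 0.03 ± 0.21 (adjusted p = 0.958). Limma called no gene among 14 hypoxia targets, 13 glycolytic enzymes, 23 cholesterol synthesis genes, 17 ATF4 targets, 14 p53 targets or 39 ribosomal protein genes. In these lists 2, 2, 1, 2, 5 and 6 genes had an unadjusted p under 0.05, beside 2938 of all 14797 genes tested. Hif3a, a hypoxia-inducible factor subunit, averaged 7.91 ± 1.16 FPKM in ESK981 tumours and 8.67 ± 0.281 FPKM in anti-PD-1 tumours and was not called (difference -0.14 ± 0.10, adjusted p = 0.50). Of 17 immediate early genes tested, 1 was lower, beside 4.04% of all genes. It was Egr2 (-0.68 ± 0.14, adjusted p = 0.0188), which had passed the filter only through the anti-PD-1 tumours. Egr2 was not called without ESK981 tumours 1R and 2R (adjusted p = 0.0933). The haemoglobin gene Hbb-bs was at 2.95 to 67.8 FPKM in ESK981 tumours and 1.15 to 7.27 FPKM in anti-PD-1 tumours, a difference of 1.96 ± 0.55 that was not called (adjusted p = 0.0720), and its highest values were those of ESK981 1R and 2R, at 67.8 and 35.4 FPKM.

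Of 13 mitochondrially encoded transcripts tested, 5 were lower with ESK981 and all 13 differences were below 0, with a median of -1.01, alongside the library measures given above. mt-Nd4l was at 3.84 to 12.2 FPKM in ESK981 tumours and 13 to 47.0 FPKM in anti-PD-1 tumours (difference -1.51 ± 0.20, adjusted p = 0.00228), and anti-PD-1 4R held the highest value. Without ESK981 tumours 1R and 2R, 1 of the 13 was called. Nuclear-encoded subunits of the same complexes were not called by limma (0 of 29, median 0.18, 1 with an unadjusted p under 0.05). The part of residual ribosomal RNA and of lane in this result was not tested.

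Small noncoding RNAs and pseudogenes were called in both directions, 11 higher and 16 lower among 1071 small RNAs and 2 higher and 52 lower among 1141 pseudogenes. Over all 14797 genes tested, 44 were higher (0.297%) and 598 lower (4.04%). Whether either class differs from all genes was not tested. Gm24245, annotated as a microRNA, had the largest difference of any called gene, -3.07 ± 0.51 (adjusted p = 0.00585), but anti-PD-1 4R held 477 FPKM against 16.9 FPKM or less in the rest of its group, and without it the adjusted p was 0.0600. Rn7s1, a copy of the signal recognition particle RNA, differed by -1.84 ± 0.41 (adjusted p = 0.0266; 0.0709 without ESK981 tumours 1R and 2R). Gm13340 and Gm29216, annotated as pseudogenes, differed by -1.48 and -1.42, and neither was called without those tumours (adjusted p of 0.0979 and 0.103 in limma). Among the higher small RNAs, Mir297c averaged 1.73 ± 0.589 FPKM in ESK981 tumours and 0.509 ± 0.348 FPKM in anti-PD-1 tumours (difference 1.24 ± 0.27, adjusted p = 0.0230; 0.0532 without those tumours). Reads of such short or copied genes are uncertain, since the rules by which multi-mapped reads were counted are not known here. Clec7a, whose product is the fungal receptor dectin-1 of myeloid cells, is annotated as a polymorphic pseudogene and was lower (-1.39 ± 0.25, adjusted p = 0.00919; 0.0616 without ESK981 tumours 1R and 2R).

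Tumours given both agents held values on both sides, which the SDs above summarise. Ccl5 ran from 0.999 to 41.1 FPKM in combination tumours, beside 1.38 to 5.65 FPKM with ESK981 alone and 9.20 to 23.6 FPKM with anti-PD-1 alone. H2-Ab1 ran from 14.7 to 135 FPKM in combination tumours, beside 14.9 to 39.3 FPKM with ESK981 alone and 50.0 to 116 FPKM with anti-PD-1 alone. For Cd274 the combination range was 1.43 to 16.7 FPKM and for Lyz2 it was 44.8 to 680 FPKM, wider at both ends than anti-PD-1 alone. Cps1 and Igfbp5, by contrast, stayed in combination tumours at 0.479 to 2.78 FPKM and 58.6 to 140 FPKM, overlapping the range of anti-PD-1 alone and under the median of ESK981 alone. These are values without a test. Combination tumour 5R held 500377 FPKM of ribosomal-RNA-like signal, against 104327 FPKM or less in the other combination tumours. Its part in these ranges and in the SDs was not tested.

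**Figure D5:**
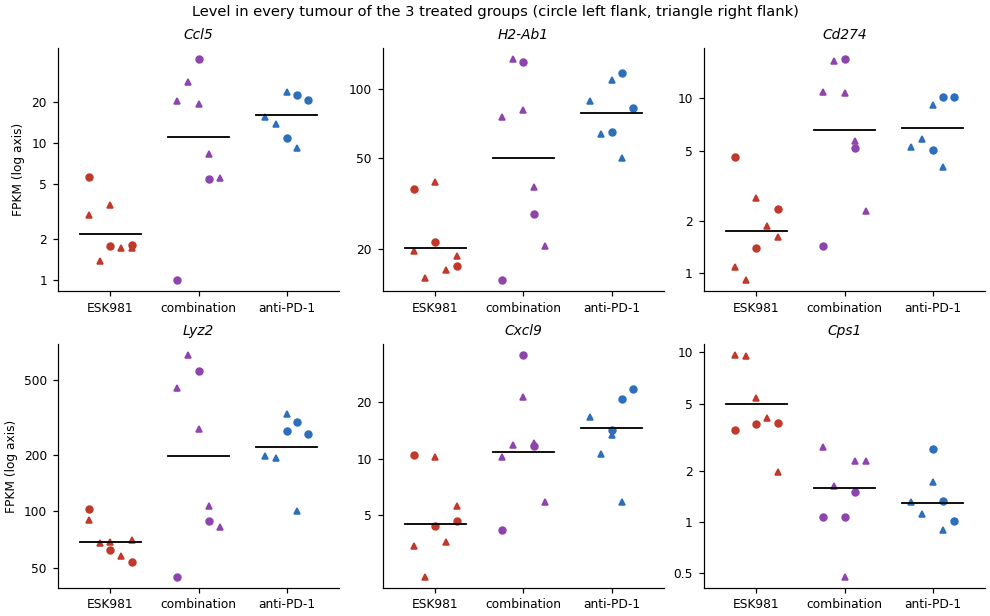
FPKM (y axis, log scale) in every tumour given ESK981 alone, both agents (combination) or anti-PD-1 alone, for 6 genes; circles are left-flank and triangles right-flank tumours, and bars mark the mean of the mouse means. Immune genes spread widely in combination tumours (Ccl5 0.999 to 41.1 FPKM), whereas Cps1 is at or under 2.78 FPKM there.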

How the data were processed

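The values are FPKM per gene, made by the authors from rRNA-depleted (RiboErase) libraries of total RNA; STAR, featureCounts and mm10 are named in the submitters' processing notes, while their versions, the gene annotation, the strand setting and the handling of multi-mapped reads were not stated. All 48795 genes of the deposited table were read and no value column lacked a sample. Depth was recovered from FPKM and exon length and used for description only. Log2(FPKM + 0.5) was averaged over the tumours of an ear tag, and limma 3.58.1 (R 4.3.3) with a mean-variance trend compared 5 with 5 mice over genes with at least 0.5 FPKM in at least 5 of 15 tumours. The test was tested on simulated data first. Named genes were the up to 12 largest non-overlapping increases and decreases, the up to 4 members of each list with the smallest p, a fixed set and the leading small RNAs; Fcgr2b, Ptprc, Adgre1, Csf1r, Mrc1, Stra6, Gm25630, Spi1, Krt8 and Igtp were added after their values were seen. The members and lists were chosen with earlier results of these data known. Alternatives changed the groups in the fit, pseudocount, filter, scaling, replicate unit, flank, trend and tumours kept. A few genes measured are not reported here.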

Additional observations from a re-analysis of the deposited data

Results flagged for a closer look

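For 116 genes in 2 groups of 5 mice, 232 groups of values were checked. In 11 of them a mouse's gap to its nearest neighbour, as a share of the group's range, exceeded Dixon's critical value of 0.71. Chance alone flags about 1 in 20 groups, so 11 of 232 is about the number that chance gives. In the anti-PD-1 group, mouse 4 was lowest for Erbin (share 0.9052) and Mki67 (0.8577). Mouse 5 of that group was highest for H2-K1 (0.7931), Hbb-bs (0.7298) and H2-D1 (0.7139), and mouse 1 for Mmp14 (0.8016) and Thy1 (0.7613). In the ESK981 group, mouse 2, whose tumour is 2R, was lowest for Nos2 (0.8225) and Cd274 (0.7279). ESK981 mouse 3 was lowest for Clec4d (0.9247), and mouse 1 was highest for Nlrp3 (0.7123). ESK981 mouse 3 was also highest for ribosomal-RNA-like signal (0.7398).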

How the results depend on the processing

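All 642 called genes kept their sign wherever they were tested, and the number called moved with the spread and with single tumours; the cause was not tested. One spread shared by 4 groups called 1 gene (0 higher, 1 lower), and shared by 3 treated groups 6 (2 higher, 4 lower). Right-flank tumours alone, with fewer tumours, called 12 (1 higher, 11 lower). That fit held no tumour of anti-PD-1 mouse 5 and only tumour 4R of its mouse 4. Without anti-PD-1 4R, 1094 were called (121 higher, 973 lower), and without ESK981 1R and 2R 469, of which 399 were among the 642. The calls that were higher numbered 119 with median-of-ratios scaling (13.6% of 877 calls, against 6.85% as reported), 75 after scaling to nuclear protein-coding FPKM and 81 with single tumours and the mouse as a random block. Settings added after seeing the data gave 222 calls for 4 groups without combination 5R and vehicle 5R (29 higher, 193 lower). They gave 595 with a weight per group shared by all genes, and 1025 without ESK981 1R and 2R and anti-PD-1 4R (202 higher, 19.7%). Leaving out 1 mouse at a time gave 400 to 901 calls, 15 to 165 higher and 384 to 787 lower. Pseudocounts, filters and trend gave 513 to 667. Of 114 named called genes, many of them chosen for a small p, 75 were called in every fit that left out 1 mouse. No paired analysis was possible because the groups share no mouse. Of 16 T cell receptor genes, 9 passed the filter on low values.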
